A study of Mus musculus with 75 samples.

Results

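The livers of vehicle-control male C57Bl/6 mice were compared at 2 ages, 3 weeks and 5 months, by sequencing of total RNA. The members are the vehicle controls of sequencing batch 1 at these ages. They are 14 samples from 15 of the series' 75 libraries, with 7 samples at each age. Their dams drank water with the vehicle, while the dams of exposed litters drank tributyltin (TBT), an organotin biocide, until weaning, at a daily dose of 0.5 mg per kg of their weight. The 7 samples of 5 months carry the numbers 1 to 6 and 9. At 3 weeks 8 libraries carry 7 numbers, and the 2 libraries of number 3 were summed. Vehicle livers of 10 months (6 samples) shared the fit and are given as levels. The 10-month vehicle library labelled as a tumor was left out. TBT livers of 3 weeks (8 samples) and low-risk TBT livers of 5 months from batch 1 (6 samples) served as a second age comparison. All of these groups are wild type and male by their labels, and a TBT liver is one from an exposed dam's litter. The labels do not say how low and high risk were assigned at 5 months, so that label may rest on expression. Whether samples of a group came from different litters is not stated, and the p-values measure only the spread between these samples.

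Around weaning the mouse liver leaves a program of growth. Hepatocytes stop dividing, blood formation has left the organ, and a set of imprinted genes that promote or restrain fetal and postnatal growth is shut down. At puberty the male pattern of growth hormone pulses, acting through STAT5b, raises male-biased genes such as the major urinary proteins (Mup) and silences genes that stay active in females. The vehicle livers give the age change without TBT, before and after puberty.

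Total counts ran from 12.07 to 19.43 M at 3 weeks and from 19.47 to 34.07 M in 6 of the 5-month samples. Sample 9 of 5 months stood apart, with 2.83 M counts, 38206 genes detected, 6.60% mitochondrial counts and a mean correlation of 0.824 with its own age, against 0.931 to 0.948 for the others. Counts of called list members are therefore given with and without it. One library of 3-week sample 3 had 6.76 M counts and 13.5% mitochondrial counts, and its log2 ratios to its partner library had a median absolute deviation of 0.565, against 0.227 to 0.387 between the other 3-week libraries. It thus differed from its partner about as much as from other animals (0.570 to 0.697), and counts with the partner alone are given with the limits at the end. Xist was at most 3.07 CPM and the Y-linked genes together at least 148 CPM in all 20 vehicle samples. CPM are counts relative to the TMM-scaled library total on the usual CPM scale, and 7 values are given as lowest, median and highest.

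Of 14962 genes tested, 1774 (11.9%) rose from 3 weeks to 5 months and 1842 (12.3%) fell, at an adjusted p under 0.05. Without 5-month sample 9, 2985 of 14721 genes (20.3%) were higher and 2805 (19.1%) lower. Of the calls made with sample 9, 1738 of 1774 higher genes (97.97%) and 1822 of 1842 lower genes (98.9%) were also made without it. The CPM ranges of the 2 ages did not overlap for 880 genes (5.88%). The median log2 fold change over all genes tested was 0.02. These percentages are the background against which the counts of each gene list stand. The plot of calls by list shows the male-biased and Mup lists on the higher side, and the female-biased, imprinted, fetal, cell-cycle, erythroid, matrix and endothelial lists on the lower side.

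**Figure D1:**
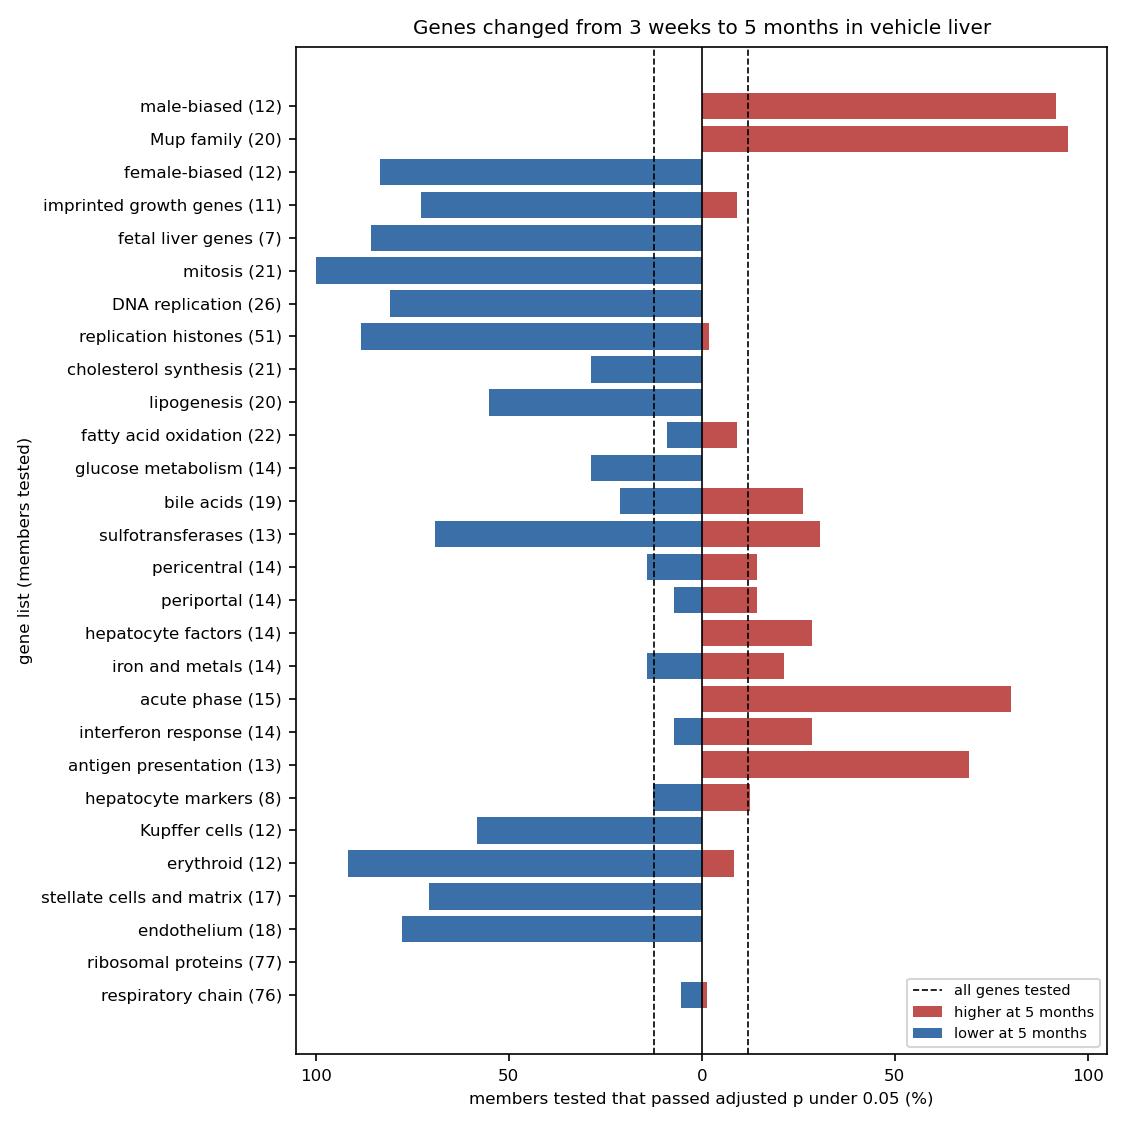
Share of the tested members of each gene list that were higher (red, to the right) or lower (blue, to the left) in vehicle liver at 5 months than at 3 weeks, in percent, with the number tested in brackets. Dashed lines mark the 11.9% higher and 12.3% lower among all 14962 genes, and the bar for mitosis reaches all 21 members.

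Male-biased genes rose. Of 12 tested, 11 were higher and 0 lower, with and without sample 9, with a median log2 fold change of 4.36. Selenbp2 did not pass, at 0.74 (adjusted p = 0.33). Mup20 (darcin, a male urinary pheromone; ENSMUSG00000078672, chromosome 4, 62050234 to 62054158, GRCm38) had 42.7, 66.3 and 110.3 CPM at 3 weeks and 1212, 2432 and 2781 CPM at 5 months. The ages did not overlap, and the log2 fold change was 5.04 (SE 0.26, adjusted p = 1.02e-11). At 10 months its range was 1948 to 3753 CPM, within and above that of 5 months.

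Cyp4a12a, a fatty acid hydroxylase of male liver and kidney (ENSMUSG00000066071, chromosome 4, 115299046 to 115332815), was at 0 to 0.0727 CPM at 3 weeks, with 2 counts in all. At 5 months it had 28.9, 113 and 125 CPM, a ratio of 5912 with a counting interval of 1637 to 48818 (95%). The fitted log2 fold change of 12.09 (adjusted p = 1.91e-13) depends on the prior count of the fit. Cyp4a12b rose by 7.05 on the log2 scale, and Elovl3, an elongase of long fatty acids, by 5.85. The oxysterol hydroxylase Cyp7b1 rose from a mean of 16.1 to 440 CPM (log2 fold change 4.77, SE 0.36), and the organic anion transporter Slco1a1 from 18.9 to 486 CPM (4.69, SE 0.56). Complement C6 showed a narrower spread, with 43.7, 52.5 and 70.1 CPM against 237, 377 and 515 CPM (log2 fold change 2.76, SE 0.16).

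Hsd3b5, a male-specific steroid reductase of the 3-beta-hydroxysteroid dehydrogenase family (chromosome 3, 98618634 to 98630252), did not separate the ages. It had 2.63, 5.16 and 19.5 CPM at 3 weeks and 1.14, 139 and 299 CPM at 5 months (log2 fold change 4.03, SE 0.86, adjusted p = 0.00187). Samples 4 and 6 of 5 months lay at 2.87 and 1.14 CPM, in or below the 3-week range, while the 10-month samples all lay between 174 and 297 CPM.

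The Mup genes form a cluster of near-identical copies on chromosome 4, and how reads that fit several copies were counted is not given in the sources used here, so that values of single members are uncertain. Of 20 members tested, 19 were higher and 0 lower, with and without sample 9 (median log2 fold change 7.65). Summed over the family, the level was 136, 670 and 856 CPM at 3 weeks and 2756, 18106 and 22648 CPM at 5 months, without overlap. Mup1 had no count in any 3-week sample and 1.64, 44.8 and 106 CPM at 5 months, at least 289-fold higher against a floor of 3 counts per library. Mup8 was likewise without counts and at least 54.9-fold higher. Mup12 had 2 counts at 3 weeks, and its ratio was 3140 with a counting interval of 869 to 25927 (95%).

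Mup7 (chromosome 4, 60066469 to 60070475) had 0.0491, 3.39 and 7.34 CPM at 3 weeks and 82.6, 3339 and 4802 CPM at 5 months. Its log2 fold change was 9.78 (SE 1.14, adjusted p = 2.96e-06). Mup21 moved from 2.41, 4.11 and 4.90 CPM to 22.4, 404 and 685 CPM (6.61, SE 0.56). In both genes the lowest 5-month sample was far under the median. The fitted changes of Mup11 (11.01) and Mup14 (10.80) rested on single 3-week samples: without 3-week sample 4 the first was 15.20, and without 3-week sample 7 the second was 16.82. Mup2 was the member that did not pass (log2 fold change 1.25, adjusted p = 0.063).

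Moxd1, a monooxygenase-like gene on chromosome 10 (24223517 to 24302790), was among the 10 largest rises, with Cyp4a12a and 8 Mup genes. It was at 0, 0.0491 and 0.493 CPM at 3 weeks and at 0.744, 51.1 and 496 CPM at 5 months (log2 fold change 9.41, SE 1.43, adjusted p = 8.2e-05). The span among the adults was wide. Without 5-month sample 3, the highest, the log2 fold change was 8.61.

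**Figure D2:**
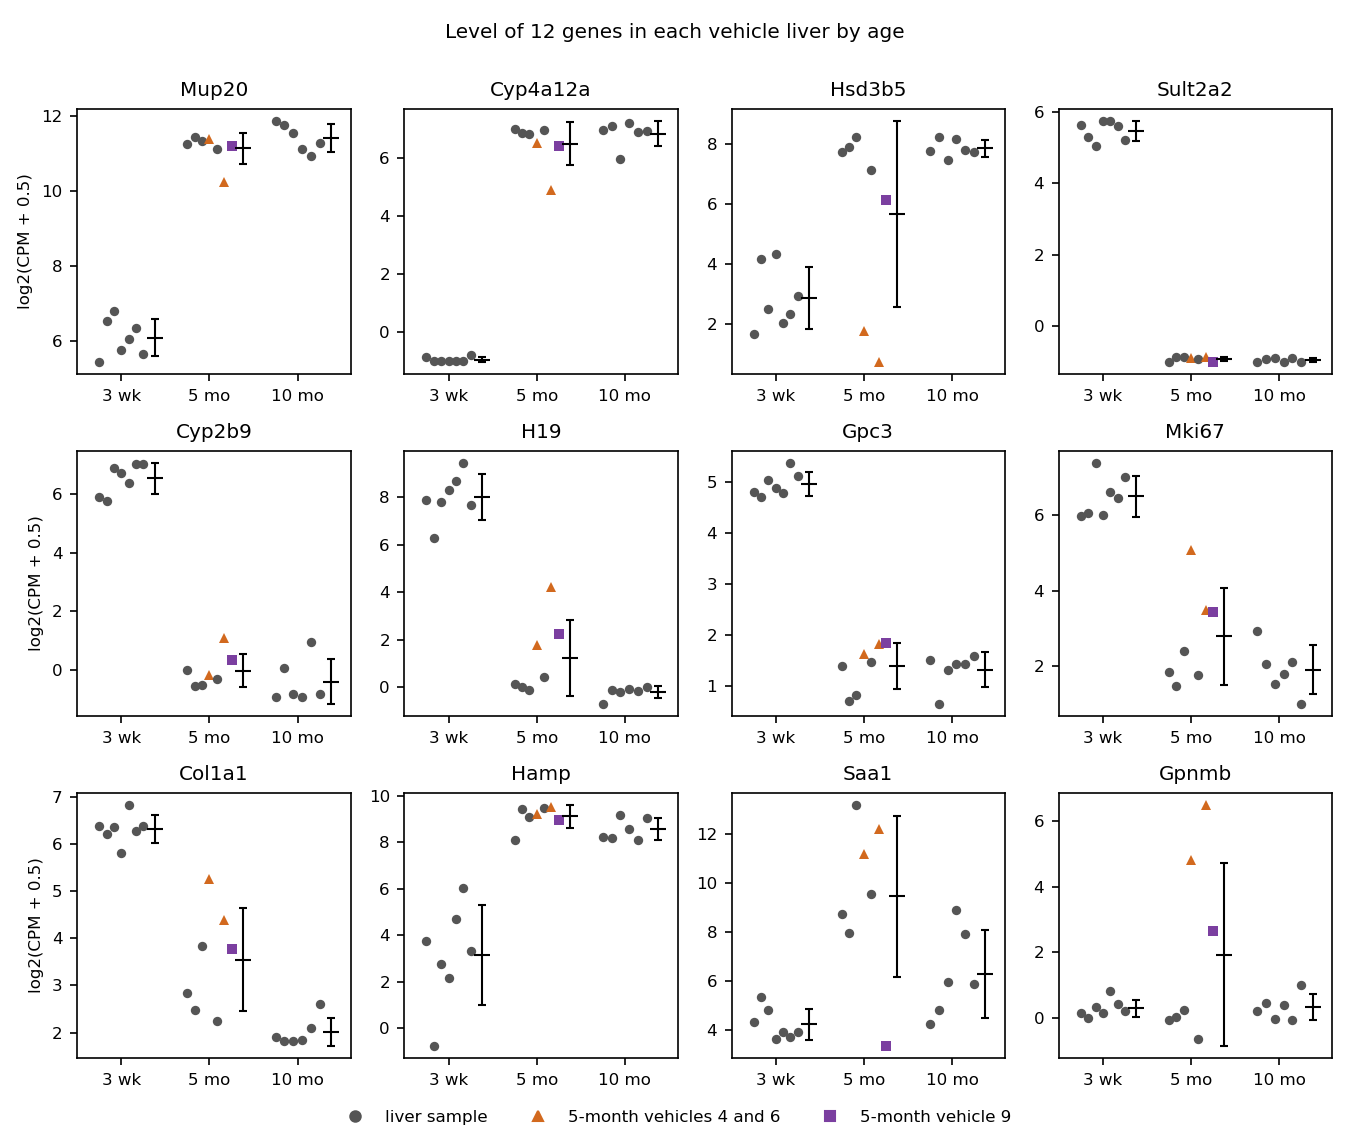
Level of 12 genes in each vehicle liver, as log2(CPM + 0.5) on the vertical axis, at 3 weeks (7 samples), 5 months (7) and 10 months (6). Points are samples, with 5-month samples 4 and 6 as triangles and sample 9 as a square, and the cross and bar beside each age give the mean and SD; Sult2a2 falls to the floor in every adult sample, while samples 4 and 6 lie near the 3-week level of Hsd3b5 and above the other adults in Gpnmb.

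Female-biased genes fell. Of 12 tested members of 14, 10 were lower and 0 higher, with and without sample 9, with a median log2 fold change of -5.55. The hydroxysteroid sulfotransferase Sult2a1 (ENSMUSG00000078798, chromosome 7, 13796246 to 13837409) had 52.6, 69.7 and 87.6 CPM at 3 weeks and 0, 0.0472 and 0.111 CPM at 5 months. All 7 adult samples were near 0, and the log2 fold change was -10.23 (SE 0.27, adjusted p = 2.47e-17). Its neighbour Sult2a2 had 32.3, 48.1 and 53.0 CPM against 0, 0.0442 and 0.0511 CPM (-10.00, SE 0.24). The Sult2a genes are close copies as well.

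Cyp2b9, a female-biased cytochrome P450 (chromosome 7, 26173411 to 26210661), had 52.9, 104.7 and 130.1 CPM at 3 weeks and 0.189, 0.398 and 1.64 CPM at 5 months (log2 fold change -7.48, SE 0.57, adjusted p = 1.1e-08). Sample 6 was the highest adult, and without it the log2 fold change was -8.17. Hao2, a peroxisomal hydroxyacid oxidase, and Cyp3a16, a P450 of young and female liver, fell by 6.85 and 6.26 on the log2 scale. The homeobox factor Cux2, which represses male genes in female liver, had mean levels of 9.58 and 2.602 CPM (-2.29, adjusted p = 0.0125). A1bg (-2.38, adjusted p = 0.0774) and Cyp17a1 (-0.78, adjusted p = 0.161) did not pass.

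Outside the list, the anion transporter gene Slc22a27 fell from 32.4, 40.8 and 49.5 CPM to 0.153, 0.498 and 3.27 CPM (log2 fold change -5.55, SE 0.46). It too was highest in adult sample 6, and the value without that sample was -6.57. Summed over the female-biased list, the 3-week samples had 410.4 to 933.8 CPM. At 5 months samples 4 and 6 had 182.7 and 163.1 CPM, and the other 5 samples 29.6 to 38.1 CPM.

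Of 16 tested members of the growth hormone and insulin-like growth factor axis, 2 were higher and 4 lower, with and without sample 9. Among all genes 11.9% were higher and 12.3% lower, and 20.3% and 19.1% without sample 9. The higher count was thus near or under the share over all genes. The cytokine-signal inhibitor Socs3 rose by 1.84 (SE 0.48). The binding protein Igfbp3 fell from 45.7, 57.2 and 77.9 CPM to 12.2, 13.5 and 27.1 CPM (-1.81, SE 0.18). Igfbp1 (-1.59), the prolactin receptor Prlr (-0.89) and Stat5b itself (-0.39, adjusted p = 0.00144) were lower too.

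The hormone's receptor and its main product did not pass. Ghr had 335, 384 and 404 CPM at 3 weeks and 276, 526.2 and 610.0 CPM at 5 months (log2 fold change 0.35, SE 0.14, adjusted p = 0.0718). Its adult range spanned that of 3 weeks, whereas the 10-month samples lay at 725 to 901 CPM. Igf1 had 479, 652 and 789 CPM against 540.0, 604 and 729 CPM (-0.10, SE 0.12, adjusted p = 0.622), so that the 5-month range fell inside the 3-week range.

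Imprinted growth genes fell. Of 11 tested members of 14, 8 were lower and 1 higher, with and without sample 9 (median -1.48). H19, a maternally expressed long noncoding RNA that shares its imprinting control with Igf2 (ENSMUSG00000000031, chromosome 7, 142575529 to 142578143), had 77.6, 237 and 699 CPM at 3 weeks and 0.409, 0.830 and 18.1 CPM at 5 months. The log2 fold change was -6.31 (SE 0.80, adjusted p = 9.6e-06). Sample 6 was again the highest adult, and without it the value was -7.98. The zinc finger gene Peg3 moved from 31.6, 37.2 and 42.1 CPM to 6.24, 10.1 and 11.9 CPM (-1.98, SE 0.13). Grb10, an adaptor that dampens insulin signalling, moved from 26.2, 37.5 and 40.3 CPM to 4.68, 6.70 and 12.2 CPM (-2.21, SE 0.17).

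Mest (-2.17), the cell-cycle inhibitor Cdkn1c (-1.62), Plagl1 (-1.48), Ndn (-0.85) and Igf2r (-0.39) were lower as well. The amino acid transporter Slc38a4 was the member that rose (0.41, adjusted p = 0.0187). Igf2 itself was at 0 to 0.490 CPM at 3 weeks, too low to be tested.

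Genes of fetal liver fell too, with 6 of 7 tested members of 10 lower and 0 higher, with and without sample 9. Gpc3, a heparan sulfate proteoglycan (ENSMUSG00000055653, chromosome X, 52272426 to 52613950), had 25.3, 28.9 and 40.8 CPM at 3 weeks and 1.13, 2.28 and 3.07 CPM at 5 months. It did not overlap between the ages (log2 fold change -3.86, SE 0.21, adjusted p = 2.26e-11). Afp, the fetal counterpart of albumin, fell from 6.48, 9.16 and 10.1 CPM to 1.61, 2.48 and 6.15 CPM (-1.62, SE 0.20). The fetal RNA-binding protein Igf2bp3 had 6.72, 9.12 and 10.7 CPM at 3 weeks and 0.378, 0.726 and 8.46 CPM at 5 months. The highest of these was sample 9, and the log2 fold change was -3.07 with it and -3.69 without it. Ahsg (fetuin A) fell from 13102, 18273 and 22062 CPM to 4057, 9988 and 13797 CPM (-0.93, SE 0.19).

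Mitotic genes were lower throughout the list. All 21 members were tested and 21 were lower, with and without sample 9, with a median of -2.53. Promoters of many such genes hold CCAAT boxes and the cell-cycle homology element TTTGAA, and so the 250 bases before the start of 3 members are shown, in RefSeq's models on GRCm38.p6, read along the gene's strand. Mki67 lies at chr7:135716380-135716629 (minus strand), Ccnb2 at chr9:70421555-70421804 (minus strand) and Kif11 at chr19:37376132-37376381 (plus strand). Capitals mark CCAAT and TTTGAA and their reverse complements.
Mki67: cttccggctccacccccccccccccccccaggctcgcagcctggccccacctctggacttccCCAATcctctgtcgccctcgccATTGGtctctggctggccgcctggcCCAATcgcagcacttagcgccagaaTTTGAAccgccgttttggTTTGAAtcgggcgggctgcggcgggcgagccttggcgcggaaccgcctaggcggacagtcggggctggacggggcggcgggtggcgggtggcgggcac
Ccnb2: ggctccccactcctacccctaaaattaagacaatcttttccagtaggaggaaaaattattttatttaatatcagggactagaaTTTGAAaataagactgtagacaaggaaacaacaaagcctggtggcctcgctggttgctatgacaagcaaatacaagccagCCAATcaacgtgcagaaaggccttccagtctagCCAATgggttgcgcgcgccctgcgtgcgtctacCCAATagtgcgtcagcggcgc
Kif11: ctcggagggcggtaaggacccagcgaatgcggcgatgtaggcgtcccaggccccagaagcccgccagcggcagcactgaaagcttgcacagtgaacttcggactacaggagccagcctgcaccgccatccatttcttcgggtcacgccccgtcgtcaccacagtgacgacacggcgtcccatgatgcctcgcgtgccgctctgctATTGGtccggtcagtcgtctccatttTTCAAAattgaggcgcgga
In these windows CCAAT was found on either strand at 3, 3 and 1 places in Mki67, Ccnb2 and Kif11, and TTTGAA at 2, 1 and 1. Neither motif overlaps the other. CCAAT stood in the window of 14 of the 16 mitotic genes matched in the table (87.5%), of 13 of 21 matched DNA replication genes (61.9%) and of 37.5% of all 27025 genes. TTTGAA stood in 7 of the 16 (43.75%), in 3 of the 21 (14.3%) and in 18.3% of all genes. It also stood in 3 of 7 matched male-biased (42.9%) and 4 of 10 female-biased genes (40.0%). For Mup, lipogenic and stellate cell genes its shares were 28.6%, 18.75% and 9.1%. CCAAT stood in 68.75% of lipogenic, 42.9% of Mup, 36.4% of stellate cell, 14.3% of male-biased and 0% of female-biased genes. A high TTTGAA share was thus not limited to mitotic genes, and differences between lists were not tested. A match describes the letters and not a bound site.

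Mki67, the antigen of dividing cells (ENSMUSG00000031004, chromosome 7, 135689784 to 135716361), had 62.5, 87.7 and 167 CPM at 3 weeks and 2.27, 4.75 and 33.5 CPM at 5 months. The ages did not overlap, with a log2 fold change of -3.31 (SE 0.54, adjusted p = 0.000146). The highest adult was sample 4, and without it the value was -4.19. Cyclin B2 (Ccnb2), chosen after its values were seen, had 7.03, 9.96 and 15.3 CPM against 0.189, 0.306 and 6.50 CPM (-3.01, SE 0.62). Here too sample 4 was the highest adult, and without it the value was -4.77. Kif11, the motor of the mitotic spindle, had 12.4, 16.01 and 21.5 CPM against 0.899, 1.94 and 7.78 CPM (-2.51, SE 0.38). Topoisomerase Top2a had 35.8, 42.0 and 63.6 CPM against 0.850, 3.93 and 19.97 CPM (-2.90, SE 0.53), and -3.62 without sample 4.

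Summed over the mitotic list, 3-week samples had 273, 361 and 481 CPM. Adult samples 1, 2, 3 and 5 had 12.9 to 20.9 CPM, and samples 4, 6 and 9 had 196, 62.3 and 83.0 CPM. The 10-month samples lay between 11.01 and 35.1 CPM.

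DNA replication genes followed. Of 26 tested, 21 were lower and 0 higher, and without sample 9 all 26 were lower. Mcm6, a subunit of the replicative helicase (chromosome 1, 128331590 to 128359664), had 28.7, 32.8 and 47.8 CPM at 3 weeks and 2.83, 5.00 and 10.1 CPM at 5 months (log2 fold change -2.56, SE 0.23, adjusted p = 5.86e-08). The sliding clamp Pcna, which also serves repair, fell by 0.81 (SE 0.10), from 31.5, 33.5 and 44.5 CPM to 13.1, 18.9 and 23.3 CPM. Uhrf1, which guides maintenance methylation, fell by 3.15, and the licensing factor Cdc6 by 3.03 with sample 9 and 3.91 without it. Gins1 (-0.65), E2f1 (-0.58), Ccne1 (-0.80) and Orc1 (-1.98) were among the 5 that did not pass with sample 9 in the fit.

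Replication-dependent histones, whose messages lack poly(A) tails and are kept in total RNA libraries, had 45 of 51 tested members of 67 lower and 1 higher, with and without sample 9. Many histone genes are close copies. The linker histone Hist1h1b had 9.96, 21.3 and 26.8 CPM at 3 weeks and 0, 0.992 and 5.25 CPM at 5 months (-3.32, SE 0.40). Hist1h2bc was the member that rose (0.55, SE 0.13, adjusted p = 0.00447).

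Metabolic lists differed from each other in how many members were called. Among all genes tested 11.9% were higher and 12.3% lower, and 20.3% and 19.1% without sample 9. Of 20 lipogenic genes, 11 were lower and 0 higher, with and without sample 9, and 7 were lower without sample 4. Fatty acid synthase Fasn had 899, 1339 and 1797 CPM at 3 weeks and 369, 482 and 1347 CPM at 5 months, where sample 5 was the highest (log2 fold change -1.25, SE 0.39, adjusted p = 0.0215). Pnpla3, a lipid droplet enzyme, had 5.37, 8.65 and 14.5 CPM against 0.619, 2.05 and 4.12 CPM and did not overlap (-2.17, SE 0.49). Thrsp (-1.80), Pklr (-1.32), Acly (-1.25) and Acaca (-1.18) were lower, whereas Scd1 (-0.24) and the regulator Srebf1 (-0.23) did not pass.

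Of 21 genes of cholesterol synthesis and uptake, 6 were lower and 0 higher, with and without sample 9. This count ran from 2 without 5-month sample 4 to 13 without 5-month sample 5. The cyclase Lss (-0.84), Pmvk (-0.76), Dhcr7 (-0.55) and the regulator Srebf2 (-0.39) were among the lower members.

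Of 22 genes of fatty acid oxidation, 2 were higher and 2 lower with sample 9, and 6 higher and 2 lower without it. With sample 9 both counts were near the shares over all genes. Over the other left-out samples 2 or 3 were higher and 1 or 2 lower. Cpt2, of the inner mitochondrial membrane, was among those higher (0.78). Cpt1a, the gate to mitochondrial oxidation, had 348, 572 and 688 CPM against 171, 699 and 1057 CPM. Its call depended on sample 9, the lowest adult: the log2 fold change was 0.39 (adjusted p = 0.273) with it and 0.56 (adjusted p = 0.00666) without it. Cyp4a31 fell by 2.31 (SE 0.43), from 12.2, 36.5 and 95.5 CPM to 3.22, 8.84 and 14.8 CPM.

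Among 14 genes of glucose metabolism 4 were lower and 0 higher, and without sample 9 there were 4 lower and 1 higher. The muscle-type pyruvate kinase Pkm had 37.2, 51.3 and 64.2 CPM against 9.22, 18.7 and 33.8 CPM (-1.20, SE 0.18), and the liver phosphofructokinase Pfkl had 57.8, 62.5 and 79.8 CPM against 16.5, 34.1 and 44.7 CPM (-0.93, SE 0.14). The coactivator Ppargc1a (-1.10) and the glucose transporter Slc2a2 (-0.60) were lower. The gluconeogenic enzymes G6pc (-0.42, adjusted p = 0.233) and Pck1 (0.39, adjusted p = 0.33) did not pass.

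Bile acid genes went both ways, with 5 of 19 higher and 4 lower, and 6 and 5 without sample 9. The uptake carrier Slco1a4 had 138, 147 and 168 CPM at 3 weeks and 19.4, 31.5 and 51.1 CPM at 5 months, well apart (-2.20, SE 0.17, adjusted p = 6.32e-09). The basolateral exporter Abcc3 had 39.2, 53.2 and 79.3 CPM against 83.8, 129 and 164 CPM (1.12, SE 0.16). Cyp27a1 (0.76), the conjugating enzyme Baat (0.74) and the phospholipid exporter Abcb4 (0.71) rose, and the sterol exporters Abcg5 (-0.78) and Abcg8 (-0.59) fell. Cyp7a1, the rate-limiting enzyme of bile acid synthesis, had 11, 33.2 and 104 CPM against 14.3, 27.4 and 110.3 CPM (0.07, SE 0.53, adjusted p = 0.95). Its ranges nearly coincided, and at 10 months it lay at 60.4 to 243 CPM.

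Of 15 genes of xenobiotic metabolism, 2 were higher and 0 lower, with and without sample 9: Cyp2c54 and Cyp3a13. These counts were near or under the shares over all genes. Without 5-month sample 6 the counts were 4 and 0, without sample 4 they were 2 and 2, and without sample 3 they were 2 and 1. Cyp2c54 had 3.68, 16.9 and 24.4 CPM against 5.45, 157 and 217 CPM (3.21, SE 0.69, adjusted p = 0.00196). The major drug-metabolising enzyme Cyp3a11 did not pass (-0.86, adjusted p = 0.0606). All 13 tested sulfotransferases of 21 passed, 9 lower and 4 higher. Without sample 9 they were 8 lower and 3 higher, and Sult1a1 was then at an adjusted p of 0.0511. Sult1a1 (-0.50) lost its call in 11 of the 14 fits that leave out 1 sample. Sult1b1 rose by 0.59. Sult2a7 (4.08) and Sult2a8 (1.62) rose while their cluster neighbours Sult2a1, Sult2a2 and Sult2a5 (-8.35) fell. In the Hsd3b family 1 of 5 tested members of 7 was higher (Hsd3b5) and 1 lower. The latter was Hsd3b1, with 6.57, 10.2 and 47.3 CPM at 3 weeks and 0, 0.0442 and 1.15 CPM at 5 months (-8.08, SE 0.75). Without sample 9, its highest adult sample, 2 members were lower.

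Zonation genes were called about as often as all genes tested, of which 11.9% were higher and 12.3% lower. Without sample 9 the shares of all genes were 20.3% and 19.1%. Of 14 pericentral genes 2 were higher and 2 lower, with and without sample 9, and the lower count was 3 without 5-month sample 3 and 1 without 3-week sample 1 or 7 or 5-month sample 1, 2 or 5. Of 14 periportal genes 2 were higher and 1 lower (3 and 1 without sample 9). Ornithine aminotransferase Oat, a pericentral gene (chromosome 7, 132557478 to 132576398), had 112, 219 and 241 CPM against 299, 699 and 1018 CPM (1.80, SE 0.24, adjusted p = 7.21e-06). The glutamate transporter Slc1a2 rose by 0.92. Glutamine synthetase Glul (-0.25, adjusted p = 0.597) and the Wnt target Axin2 (-0.06, adjusted p = 0.885) did not pass. On the periportal side Cyp2f2 had 272, 338 and 427 CPM against 393, 707 and 909 CPM (1.01, SE 0.16), and Cdh1 fell by 0.71. The urea cycle enzyme Cps1 did not pass (-0.30, adjusted p = 0.273).

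Of 14 hepatocyte transcription factors 4 were higher and 0 lower (5 and 0 without sample 9), and leaving out other single samples gave 2 to 5. Zbtb20, a repressor of Afp, had 99.1, 159 and 236 CPM against 186, 276 and 451 CPM (0.97, SE 0.19, adjusted p = 0.000794). Zhx2, which also represses Afp and H19 after birth, had 11.1, 12.7 and 17.3 CPM against 18.3, 21.6 and 28.2 CPM and did not overlap (0.72, SE 0.11, adjusted p = 3.15e-05). Hnf4a, a master regulator of the hepatocyte, had 552, 697 and 756 CPM against 349, 672 and 1171 CPM (0.07, SE 0.17, adjusted p = 0.835).

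Of 14 iron and metal genes 3 were higher and 2 lower, and 4 and 2 without sample 9. The shares over all genes were 11.9% and 12.3%, and 20.3% and 19.1% without sample 9. The lower count was near or under them. Hamp (ENSMUSG00000050440, chromosome 7, 30942368 to 30944032), the hormone that blocks iron export, had 0.0817, 9.45 and 64.4 CPM at 3 weeks and 273, 591 and 731 CPM at 5 months. Its log2 fold change was 5.04 (SE 0.71, adjusted p = 2.77e-05), and 5.90 without 3-week sample 6, the highest of its age. Bmp6, the signal that induces hepcidin, rose from 2.29, 2.91 and 4.11 CPM to 4.82, 7.04 and 7.30 CPM (1.02, SE 0.16), and its target Id1 by 1.60. The transferrin receptor Tfrc fell from 47.7, 77.0 and 131 CPM to 18.4, 21.2 and 26.8 CPM (-1.94, SE 0.20), and the iron exporter Slc40a1 by 0.48.

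Acute-phase genes rose with a wide spread. Of 15 tested 12 were higher and 0 lower (median 1.45), and 14 and 0 without sample 9. Serum amyloid Saa1 had 11.98, 14.7 and 39.9 CPM at 3 weeks and 9.61, 746 and 9205 CPM at 5 months. Sample 9 was the lowest adult and sample 3 the highest, and the log2 fold change of 6.97 (SE 1.19, adjusted p = 0.000246) was 6.12 without sample 3. Saa1 and Saa2 are near-identical copies. Orm1 had 37.9, 140.5 and 178 CPM against 179, 735 and 3078 CPM (3.35, SE 0.48), and the iron-binding Lcn2 rose by 4.36. Fibrinogen beta Fgb had 5835, 7003 and 8053 CPM against 2839.5, 11876 and 18178 CPM (0.86 with sample 9 and 1.04 without it). Summed over the list, adults other than sample 9 had 44225 to 120339 CPM, 3-week samples 26518 to 35454 CPM and 10-month samples 24437 to 36121 CPM.

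Antigen presentation rose, with 9 of 13 members higher and 0 lower, and 13 of 13 without sample 9. The class II chain H2-Aa (chromosome 17, 34282744 to 34287823) had 10.8, 13.5 and 25.8 CPM against 24.2, 28.6 and 85.8 CPM (1.48, SE 0.26, adjusted p = 0.000236). The invariant chain Cd74 had 33.7, 38.4 and 67.5 CPM against 58.4, 79.2 and 188 CPM (1.28, SE 0.21). In both genes only the highest 3-week sample, number 4, reached the adult range. The class II regulator Ciita rose by 1.20. Of 14 interferon-response genes 4 were higher and 1 lower, and 6 and 1 without sample 9. The lower count was 0 to 2 over the other left-out samples. Oasl1 had 3.34, 5.11 and 7.83 CPM against 6.53, 20.8 and 28.3 CPM (1.89, SE 0.21), and Ifi27 had 20.9, 36.1 and 47.2 CPM against 21.1, 103 and 248 CPM (1.85, SE 0.31). Isg15 did not pass (0.04, adjusted p = 0.942).

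The time of day of sampling is not given in the labels, and clock genes move with it. Of 19 clock genes 2 were higher and 5 lower (3 and 5 without sample 9), and leaving out other single samples gave 0 to 3 and 2 to 5. Over all genes 11.9% were higher and 12.3% lower, and 20.3% and 19.1% without sample 9. The higher count was near or under these shares with and without sample 9. Cry1 had 13.3, 21.4 and 27.5 CPM against 5.78, 8.08 and 24.98 CPM (-1.07, SE 0.28, adjusted p = 0.00805). Dbp, a clock output, ranged from 0.654 to 8.01 CPM and from 1.63 to 16.2 CPM (0.56, adjusted p = 0.547). Among 11 immediate-early and stress genes Dusp1 was lower (-0.93, SE 0.25), with and without sample 9, and the others did not pass.

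Markers of other liver cells follow. In bulk tissue fewer cells of a type and less RNA per cell cannot be told apart, and the part of cell numbers in any result above was not tested. Of 8 hepatocyte markers 1 was higher and 1 lower (4 and 1 without sample 9). Over all genes 11.9% were higher and 12.3% lower, and 20.3% and 19.1% without sample 9. With sample 9 both counts were near these shares, and without it the lower count was under its share. Albumin (Alb), the defining marker, had 101798, 124599 and 150171 CPM at 3 weeks and 49147, 76822 and 103877 CPM at 5 months (-0.81, SE 0.18, adjusted p = 0.00181). The labelled tissue was thus marked as liver in every sample, and Ttr did not pass (-0.25, adjusted p = 0.354).

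Matrix and stellate cell genes fell, with 12 of 17 tested members of 18 lower and 0 higher, with and without sample 9. Sparc, a collagen-binding matrix protein (chromosome 11, 55394500 to 55423183), had 258, 280.3 and 337 CPM at 3 weeks and 29.2, 59.4 and 80.4 CPM at 5 months (-2.22, SE 0.14, adjusted p = 3.6e-10). The collagen Col1a1 had 55.4, 80.9 and 113 CPM against 4.25, 13.1 and 37.6 CPM (-2.47, SE 0.38), with sample 4 the highest adult, and 3.02 to 5.56 CPM at 10 months. Elastin Eln fell by 3.33 and Col3a1 by 2.75. Lrat, which stores retinol esters in stellate cells, fell by 0.62 (SE 0.14), from 25.9, 32.1 and 46.4 CPM to 14.2, 22.3 and 24.8 CPM. Dcn (-0.23), Lum (-0.26) and Pdgfrb (-0.21) did not pass.

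Endothelial genes fell in 14 of 18 members and rose in 0, with and without sample 9. The scavenger receptor Stab2 had 156, 184 and 225 CPM against 58.5, 82.5 and 113 CPM (-1.15, SE 0.12, adjusted p = 6.38e-07). Oit3 of the sinusoids had 53.0, 57.3 and 64.3 CPM against 18.8, 29.6 and 31.4 CPM (-1.05, SE 0.09). Neither gene overlapped between the ages. Lyve1 (-1.39), Cdh5 (-0.87) and Kdr (-0.67) were lower, and the angiocrine genes Wnt9b (0.14) and Bmp2 (-0.11) did not pass.

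Kupffer cell markers were lower in 7 of 12 and higher in 0, with and without sample 9, but in 3 without 3-week sample 5 or 5-month sample 5. Marco, a scavenger receptor, had 25.7, 43.3 and 111 CPM against 5.33, 7.92 and 31.3 CPM (-2.07, SE 0.44, adjusted p = 0.00182). Clec4f, the defining lectin of Kupffer cells, had 102, 125 and 186 CPM against 44.6, 82.1 and 134 CPM (-0.68, SE 0.18). Timd4 fell by 1.31. The complement genes C1qa, C1qb and C1qc (-0.30, -0.51 and -0.45) did not pass.

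Of 9 genes of recruited or lipid-associated macrophages 4 were higher and 1 lower (5 and 1 without sample 9), and 2 were higher without 5-month sample 6. The lower member was lipoprotein lipase Lpl, with 206, 306 and 461 CPM against 15.8, 21.3 and 70.3 CPM (-3.30, SE 0.31, adjusted p = 1.35e-07). Gpnmb, a glycoprotein of lipid-laden macrophages, had 0.490, 0.654 and 1.24 CPM at 3 weeks and 0.138, 0.664 and 89.7 CPM at 5 months. Its medians were alike, and samples 4 and 6 held 27.5 and 89.7 CPM. The log2 fold change was 4.58 (SE 1.14, adjusted p = 0.00605), and 2.96 without sample 6.

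Erythroid genes fell in 11 of 12 tested members of 13 and rose in 1, with and without sample 9. The anion exchanger Slc4a1 had 6.78, 23.97 and 64.2 CPM against 0.588, 1.04 and 5.00 CPM (-4.29, SE 0.56, adjusted p = 1.11e-05). Beta-globin Hbb-bs had 211, 344 and 885 CPM against 38.05, 72.0 and 378 CPM (-1.63, SE 0.48). The alpha- and beta-globin genes are close copies, and blood left in the tissue holds their RNA too. Alas2, the erythroid enzyme of heme synthesis, was the member that rose (0.59, SE 0.19, adjusted p = 0.0278). That call was lost when any 1 of 6 single samples was left out.

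Of 9 tested B and plasma cell genes of 10, 2 were higher and 2 lower, and 2 and 5 without sample 9. Over the other left-out samples 1 or 2 were higher and 1 to 4 lower. Jchain, a higher member (1.69), lost its call in 5 of the 14 fits that leave out 1 sample. The antibody chain Igha had 0, 0.0501 and 0.899 CPM against 0.898, 3.54 and 12.9 CPM (4.53, SE 0.70, adjusted p = 5.62e-05), and 5.398 without 3-week sample 2. The B cell surface gene Ms4a1 fell by 1.58. Of 11 tested T and NK cell genes 0 passed either way by edgeR, by DESeq2 or at an unadjusted p under 0.05. Without sample 9, which had a summed level of 36.5 CPM against 6.29 to 12.7 CPM in the other adults, 1 of 9 tested was lower (Klrb1c, -1.53), and 1 was also lower without 5-month sample 4. Of 7 tested neutrophil genes Ngp was lower (-3.82). It was too low to be tested without sample 9 and in 5 of the other fits that leave out 1 sample. Without sample 9, 1 of 6 tested was lower (Mpo, -1.98), and none was lower without 3-week sample 1, 3, 5 or 7. The summed level of the list was 105.9 and 38.3 CPM in 3-week samples 3 and 5, and 2.94 to 9.38 CPM in the other 3-week samples. Among 6 tested bile duct genes of 8, 1 was higher and 0 lower, with and without sample 9. Sox9 had 2.72, 3.78 and 6.01 CPM against 6.87, 9.24 and 18.4 CPM (1.25, SE 0.22, adjusted p = 0.000232), and Krt19 did not pass (-0.23, adjusted p = 0.745).

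Markers of neighbouring organs were low but uneven. The summed level of 9 pancreatic acinar genes was 2.10 to 5.07 CPM in 6 of the 3-week samples and 23.4 CPM in 3-week sample 1. At 5 months it was 0.0991 to 1.94 CPM in 6 samples and 44.6 CPM in sample 9. Pnlip and Ctrb1, which define acinar cells, had a median of 0 at both ages. Among the adipose and muscle genes Adipoq and Ckm were also at a median of 0 or 0.0472 CPM. The sum over the 8 adipose and muscle genes was 109.5 CPM in 3-week sample 1 and 6.84 to 10.8 CPM in the other 3-week samples, and 27.7 CPM in 5-month sample 9 and 3.47 to 11.1 CPM in the other adults. The samples that were high for the acinar genes were thus high here too, and the part of this tissue in other results was not tested.

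**Figure D3:**
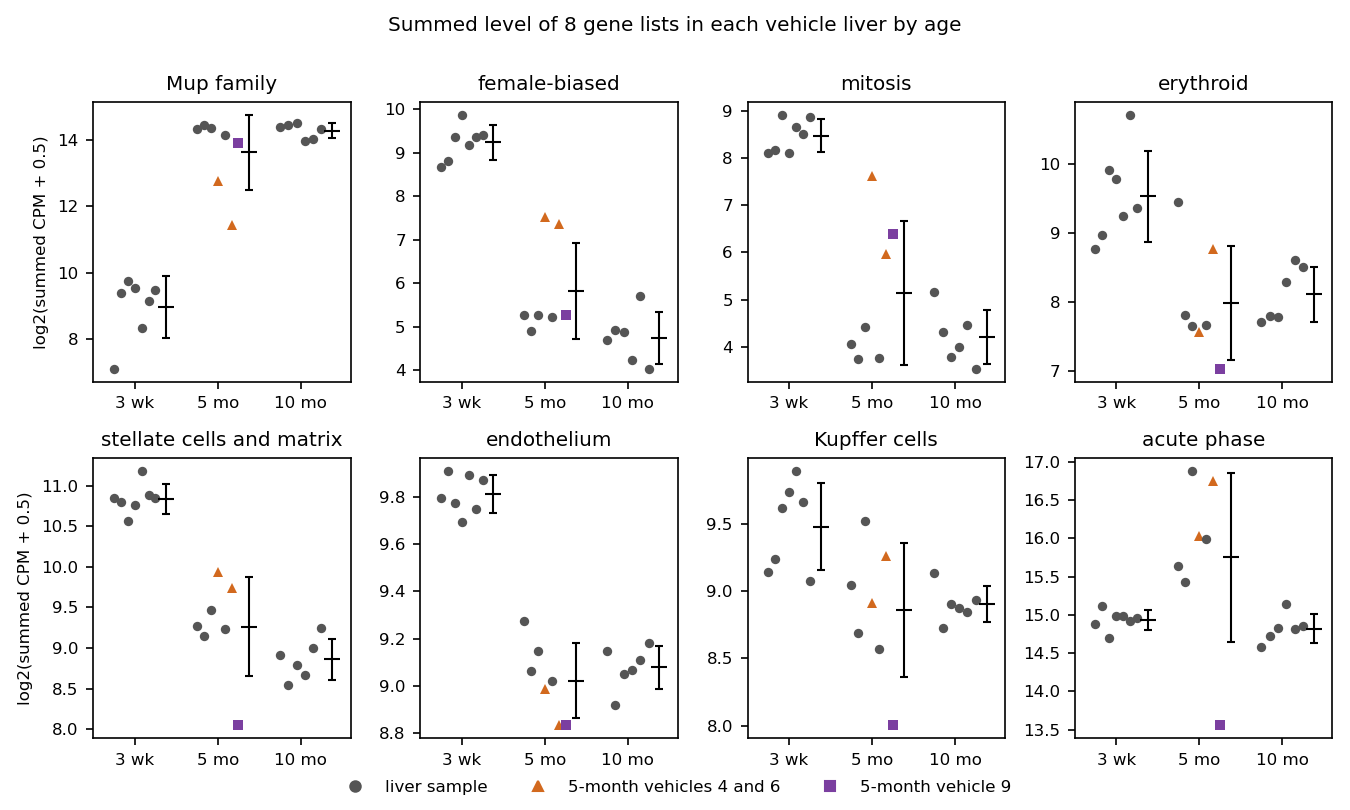
Summed level of 8 gene lists in each vehicle liver, as log2(summed CPM + 0.5), at 3 weeks (7 samples), 5 months (7) and 10 months (6), with the mean and SD beside each age. Samples 4 and 6 of 5 months (triangles) lie between the ages in the Mup, female-biased and mitosis panels, and sample 9 (square) is the lowest adult in the stellate, Kupffer and acute-phase panels.

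The adult samples differed among themselves in the age genes. Genes called in the TBT age comparison were placed on the vehicle livers as the median log2 difference from the mean of the 3-week vehicles. That contrast is between TBT groups, but the vehicles of both ages share its filter and its estimate of the spread. For the 1852 genes higher with age in TBT livers this was 0.44 to 0.52 in 5-month samples 1, 2, 3 and 5, and 0.31, 0.29 and 0.16 in samples 4, 6 and 9. For the 1851 genes lower with age it was -0.81 to -1.03 in the former, and -0.54, -0.60 and -0.46 in the latter. The 10-month vehicles lay at 0.51 to 0.58 and at -0.90 to -1.10. Samples 4 and 6 also had the highest Gpnmb, Trem2 (8.31 and 9.32 CPM) and Ly6d (54.1 and 89.0 CPM), where the 3-week ranges ended at 1.24, 0.952 and 3.81 CPM. Gpnmb and Ly6d belong to a list of 8 genes chosen on other libraries of this series as markers of high-risk livers, so their direction there is not independent. Of those 8, 4 were higher and 0 lower with age, and 4 and 0 of 6 tested without sample 9. Without 5-month sample 4, 4 of 5 tested were higher and 1 lower. Over the other left-out samples 4 or 5 were higher and 0 lower.

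The same age step was measured in TBT livers. Of 15304 genes, 1859 (12.1%) were higher and 1891 (12.4%) lower in low-risk livers of 5 months than in TBT livers of 3 weeks. Of the genes called in vehicle livers, 1081 higher (60.9% of the vehicle and 58.1% of the TBT calls) and 1213 lower (65.9% and 64.1%) were called in TBT livers too. Of 3599 genes called in vehicle and tested in TBT, 3457 (96.1%) had the same sign. Xist, the RNA of the inactive X, stood at 299 CPM in the library labelled 3-week TBT 4, and at most at 1.69 CPM in the other 3-week TBT libraries. Without it 1580 genes were higher and 1640 lower. Without 5-month vehicle 9, which shares the fit, they were 2331 and 2309.

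Levels in the TBT groups come from a fit over 4 groups. Sult2a1 had 34.9, 63.4 and 99.0 CPM in 3-week TBT livers and 0 to 0.134 CPM in low-risk livers of 5 months (log2 fold change -10.36). Hsd3b5 lay at 154, 261 and 329 CPM in the 6 low-risk livers, none of which was as low as vehicle samples 4 and 6, and rose by 5.31. Mup20 had 1783, 2204 and 4500.3 CPM there, and H19 had 0 to 0.991 CPM. Gpnmb had 0.472, 1.29 and 3.68 CPM in low-risk livers and did not pass (0.73, adjusted p = 0.643). By list, 20 of 20 tested Mup genes, 11 of 12 male-biased, 12 of 12 female-biased and 21 of 21 mitotic genes passed in TBT livers in the direction seen in vehicles. Kupffer cell genes passed in 1 of 12 and acute-phase genes in 6 of 15. All of these list counts include the library labelled 3-week TBT 4, and list counts without it were not made. Whether such list counts differ between vehicle and TBT was not tested.

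The test of the difference between the 2 age steps passed for 1 gene of 15304 (0.00653%), and 985 genes had an unadjusted p under 0.05. That gene was Hpgd, the enzyme that inactivates prostaglandins (ENSMUSG00000031613, chromosome 8, 56294585 to 56321043). Vehicle livers had 86.7, 103 and 119.9 CPM at 3 weeks and 24.8, 42.4 and 55.3 CPM at 5 months, without overlap (-1.30, SE 0.14). TBT livers had 65.4, 90.6 and 109 CPM and then 63.3, 85.8 and 106 CPM (-0.10, adjusted p = 0.679). The difference was 1.19 (SE 0.21, adjusted p = 0.0457), and the number of genes that passed ran from 0 to 6 over the alternatives. It was 0 without the library labelled 3-week TBT 4. The 10-month vehicles had 65.1 to 94.6 CPM of Hpgd.

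**Figure D4:**
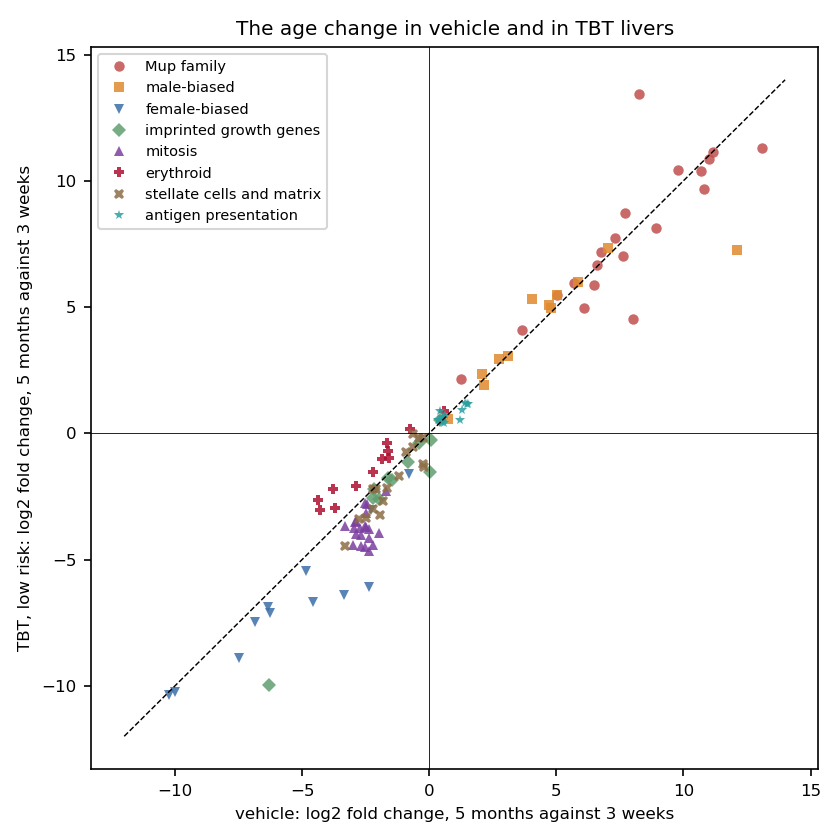
Log2 fold change from 3 weeks to 5 months in vehicle livers (horizontal axis) and from 3-week TBT to 5-month low-risk TBT livers (vertical axis) for the members of 8 gene lists, with the line of equal change dashed. Mup and male-biased genes lie in the upper right quadrant, female-biased and mitotic genes in the lower left.

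Housekeeping lists served as a contrast. Of 77 tested ribosomal protein genes 0 were called in either direction by edgeR, with a median of -0.11. At an unadjusted p under 0.05, 2 were lower, DESeq2 called 0, and edgeR called 2 higher and 0 lower without sample 9. Of 76 tested nuclear genes of the respiratory chain 1 was higher and 4 lower (7 and 5 without sample 9). The lower count was 0 without 3-week sample 3, which holds the library with 13.5% mitochondrial counts, 4 without 5-month sample 5, and 1 to 3 without each of the others. Atp5s, a coupling factor of ATP synthase, rose by 0.75 (SE 0.13), from 2.40, 2.62 and 3.71 CPM to 3.91, 4.61 and 5.35 CPM. Atp5b did not pass (-0.23, adjusted p = 0.288). Of the 13 mitochondrially encoded genes 0 passed by edgeR or DESeq2 with sample 9, 1 had an unadjusted p under 0.05, and 2 were lower without sample 9.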

How the data were processed

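Total RNA from livers was sequenced from TruSeq stranded libraries, per the labels' protocols. The authors deposited 1 table of gene counts for all libraries. Per the submitters' processing notes Trim Galore, HISAT2, featureCounts and mm10 were used, and per the file name the counts were adjusted with ComBat-seq. Versions, the strand setting, the handling of reads that fit several genes and the terms of the batch adjustment are not given in the sources used here. Antisense or overlapping genes and near-identical copies may therefore share reads. All 55536 gene IDs matched GENCODE M21, which gave symbols and GRCm38 coordinates.

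Counts were scaled by TMM, filtered with filterByExpr and tested with edgeR 4.0.16 (quasi-likelihood F test, robust) in R 4.3.3, with Benjamini-Hochberg adjustment over all genes and a threshold of 0.05. Vehicle livers of 3 weeks, 5 months and 10 months of batch 1, without the 10-month library labelled as a tumor, entered 1 fit. The TBT age change and the difference of changes came from a second fit of 4 groups. DESeq2 1.42.0 was an alternative, with other scaling, no filter, 2 ages only, protein-coding genes only, a replicate block and each sample left out. SE is the log2 fold change divided by the square root of F. Intervals and floors cover counting error only.

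The vehicle comparison was tested on simulated data with 200 changed genes. By edgeR it recovered 82 of 100 genes changed 2-fold and 94 of 100 changed 4-fold, with 9 false calls among 14962 genes. DESeq2 recovered 86 and 96 of these, with 27 false calls. Apart from the changed genes, all simulated samples shared the same expected profile. None had an outlying profile like that of 5-month sample 9, so these figures are not error rates of the real comparison. Named genes were those of 42 lists (the first 2 members and up to 2 with the smallest adjusted p) and the 10 largest rises and falls with a mean of at least 5 CPM in the higher group and no overlap. That made 176 genes, and Hpgd and Ccnb2 were added after their values were seen. Some of these are not reported here. Other members appear where a list's count is spelled out. The samples compared and the lists were chosen with earlier results of these data known.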

Additional observations from a re-analysis of the deposited data

Results flagged for a closer look

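Within each age, 198 sets of 7 values were examined for an outlying sample. In 22 sets a sample's gap to its nearest neighbour exceeded Dixon's critical value of 0.568 of the range. For CPM levels and total counts the gap and range were taken on the log2 scale, although the values printed below are unlogged. Genes detected, the mitochondrial share and the mean correlation were taken unlogged. Chance gives about 1 in 20. Of the 22, 18 were at 5 months, and 13 of these were sample 9.

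Sample 9 was the lowest 5-month liver in Ahsg (4057 CPM), Cpt1a (171 CPM), Pfkl (16.5 CPM), Ifi27 (21.1 CPM), Fgb (2839.5 CPM), Sparc (29.2 CPM) and the summed stellate cell and matrix list (264 CPM). It was the highest in Hsd3b1 (1.15 CPM), Igf2bp3 (8.46 CPM) and Sox9 (18.4 CPM). It also had the lowest total count (2.83 M), the most genes detected (38206) and the lowest mean correlation with its own age (0.824).

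Sample 6 was the lowest 5-month liver in Mup20 (1212 CPM) and Cyp4a12a (28.9 CPM). Sample 4 was the highest in Ccnb2 (6.50 CPM), sample 5 in Fasn (1347 CPM), and sample 1 was the lowest in Hamp (273 CPM). At 3 weeks, sample 4 was the highest in H2-Aa (25.8 CPM) and Cd74 (67.5 CPM), sample 5 in Sparc (337 CPM), and sample 3 in the mitochondrial share (6.79%).

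The age change of Hpgd differed between TBT and vehicle livers by 1.19 on the log2 scale, the 1 gene that passed that test.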

How the results depend on the processing

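The fit without 5-month sample 9 called 2985 genes higher and 2805 lower, and 2983 and 2774 with 3-week sample 3 taken from its second library alone. With no filter 913 were higher and 1259 lower in vehicle livers, and 1098 and 1303 in TBT livers. The lower side was the larger here, as it was by a smaller margin in the main fits. Leaving out single samples gave 1486 to 2985 higher and 1518 to 2805 lower, and all samples but 9 stayed within 1486 to 1864 and up to 1851. DESeq2 called 2513 higher and 2067 lower, other size factors 1945 and 1765, and the 2-age fit 1244 and 1383. Of the 122 named genes called, 120 were still called without sample 9, and 11 lost the call when at least 1 of 14 samples was left out. No direction reversed.

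The difference between TBT and vehicle livers passed in 1 gene. It passed in 0 without the library labelled 3-week TBT 4, in 0 with other size factors, in 0 with no filter, in 3 without 5-month vehicle 9 and in 6 by DESeq2 (unadjusted p under 0.05: 827, 1001, 5492, 1354 and 1249 genes). The cause was not tested.

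Same-numbered vehicle samples did not deviate together (correlations -0.24 to 0.12), so these values gave no sign of pairing by number. Whether equal numbers share a litter or an order of processing was not tested. With a replicate block over numbers 1 to 6, 1700 genes were higher and 1851 lower, against 2107 and 2136 in the same 12 samples without it. Sample 9 had the lowest depth, at 2.83 M counts, and yet the most genes detected, 38206. What set it apart was not tested.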
